A study of Arabidopsis thaliana with 24 samples.

Results

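EFR, BIK1 and SAG101 are 3 immune signalling genes of Arabidopsis thaliana, and their transcript levels were followed through all 8 groups of a study of salicylic acid (SA) given at different times of day. Each gene was taken by its name, with earlier results of these data known. Each is measured by 1 probe set: EFR (AT5G20480) by 246082_at, BIK1 (AT2G39660) by 267624_at and SAG101 (AT5G14930) by 246600_at, 3 of 22746 probe sets tested. EFR is the leucine-rich repeat receptor kinase that senses the bacterial elongation factor EF-Tu at the cell surface. BIK1 is a cytoplasmic kinase that sits beneath EFR and related receptors and, on activation, phosphorylates the NADPH oxidase RBOHD. SAG101 is a lipase-like protein, first described in leaf senescence, that pairs with EDS1 and works with helper NLR proteins of the NRG1 type downstream of intracellular receptors. The genes thus stand at a surface receptor, at the kinase that relays its signal, and at a node of intracellular immunity, and SA is the hormone that amplifies both layers in leaves.

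RNA came from true leaves of wild-type plants 23 days old, raised in soil with a 12 h day length, kept for 24 h in constant light before treatment and left in it afterwards. The groups, with 3 arrays each, labelled biological replicates, and 24 in all, were 1 mM SA and water given at ZT36 and sampled at 3 h, SA and water at ZT36 and 0 h, SA and water at ZT24 and 3 h, and SA and water at ZT24 and 0 h, where ZT is zeitgeber time in hours. How SA was applied, and how many plants made up an array, are not given in the sources used here. The arrays were Affymetrix Arabidopsis arrays, and the deposited log2 values are centred, with each probe set's own median across the 24 arrays set to 0. A value of 0 is therefore the gene's own median, the 3 genes cannot be ranked by abundance, and leaf markers cannot be read as present or absent. In whole leaves, fewer cells of a type and less RNA per cell cannot be told apart.

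The arrays do not all stand to each other as their labels would have it. The arrays labelled water 3 h lay close to water 0 h: at ZT36 limma called 2 probe sets after Benjamini-Hochberg adjustment (0.00879%, while 3049 had an unadjusted p under 0.05), and at ZT24 limma called 0 (0%, while 728 had an unadjusted p under 0.05). The ZT36 count became 705 when water 0 h replicate 1 was left out, 138 when water 3 h replicate 3 was, 4 when water 0 h replicate 2 was and 0 for each of the other 3 arrays, and it was 1355 with array weights. The ZT24 count was 5 after quantile normalization and 7 with array weights. The arrays labelled SA 0 h stood apart from water 0 h, with 29% of probe sets called at ZT36 and 16.2% at ZT24. The clock gene GI was among them, at -2.68 ± 0.20 at ZT36 and 1.01 ± 0.20 at ZT24 (log2 difference ± SE, SA minus water), while UGT76B1, an SA glucosyltransferase gene, was not called at either time (-0.12 and 0.14). Whether the labels water 3 h and SA 0 h were exchanged was not tested, and the groups are kept as labelled. Were they exchanged, each value given here against water 3 h would be one against SA 0 h, and the reverse. Each response at 3 h is for this reason given against the arrays labelled water 3 h, against those labelled SA 0 h and against water 0 h, the last of these added after seeing the data. As labelled, the 0 h controls differ from SA 3 h also by the 3 h after treatment. Against them, SA and elapsed time cannot be told apart. The comparisons share the same SA 3 h arrays and are not independent. In the SA 3 h arrays UGT76B1 rose by 8.66 ± 0.13 (n = 3 arrays a group) at ZT36 and by 8.18 ± 0.13 at ZT24 against water 3 h, and by 8.52 and 7.75 against SA 0 h, each with a limma adjusted p of 1.2e-19 or less. In SA 3 h against water 3 h, 21.6% of all probe sets were called lower at ZT36 and 20.5% at ZT24. Of cell type markers, 1 of 4 listed guard cell genes, 3 of 5 mesophyll genes and 1 of 4 root genes were measured. The guard cell gene FMA was lower in that comparison at ZT36 (-0.48 ± 0.11) and ZT24 (-0.44 ± 0.11). Of the mesophyll genes, 2 of 3 were lower at ZT36 and 0 of 3 at ZT24, and the root gene PYK10 did not pass at either time. So few markers say little beside those shares. The part of these cell types in the results below was not tested.

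EFR was the most strongly changed of the 3 genes and rose after SA at both times of day. In the SA 3 h arrays it stood 3.35-fold above water 3 h after treatment at ZT36 and 3.73-fold above it after treatment at ZT24. At ZT36 the SA 3 h arrays held EFR at 1.56, 1.74 and 1.70 on the centred log2 scale, against 0.03, -0.13 and -0.13 in water 3 h, -0.03, -0.05 and -0.14 in SA 0 h and 0.09, -0.24 and -0.10 in water 0 h. All 3 SA 3 h arrays lay far above the other 9, which overlapped one another. At ZT24 the SA 3 h arrays held it at 2.11, 1.29 and 1.60, against 0.05, -0.42 and -0.32 in water 3 h, 0.09, 0.28 and 0.13 in SA 0 h and -0.15, -0.34 and -0.12 in water 0 h. The treated arrays were again the 3 highest, with a spread (SD 0.41, n = 3) that was the widest of any group for this gene.

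The log2 difference of EFR between SA 3 h and water 3 h was 1.74 ± 0.15 at ZT36 (limma, Benjamini-Hochberg adjusted p = 6.65e-09) and 1.90 ± 0.15 at ZT24 (adjusted p = 2.52e-09). In these comparisons 40.2% of all probe sets were called at ZT36, 18.5% of them all being higher in SA, and 38.1% at ZT24, with 17.7% higher. The SA arrays lay wholly above water 3 h for 22.8% of probe sets at ZT36 and 20.2% at ZT24. EFR ranked 567 from the top of 22746 probe sets by log2 difference at ZT36 and 422 at ZT24. Against SA 0 h it rose by 1.74 ± 0.15 at ZT36 (adjusted p = 1.58e-08, 13.3% of probe sets called higher) and by 1.50 ± 0.15 at ZT24 (adjusted p = 9.87e-08, 14.3% called higher), where the groups of 19.4% and 16.4% of probe sets did not overlap in that direction. Against water 0 h the differences were 1.75 and 1.87, beside 19.4% and 18.1% of probe sets called higher and 21.9% and 21.2% without overlap in that direction. After quantile normalization the ZT24 value against SA 0 h was 0.90 (adjusted p = 9.83e-06).

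**Figure D1:**
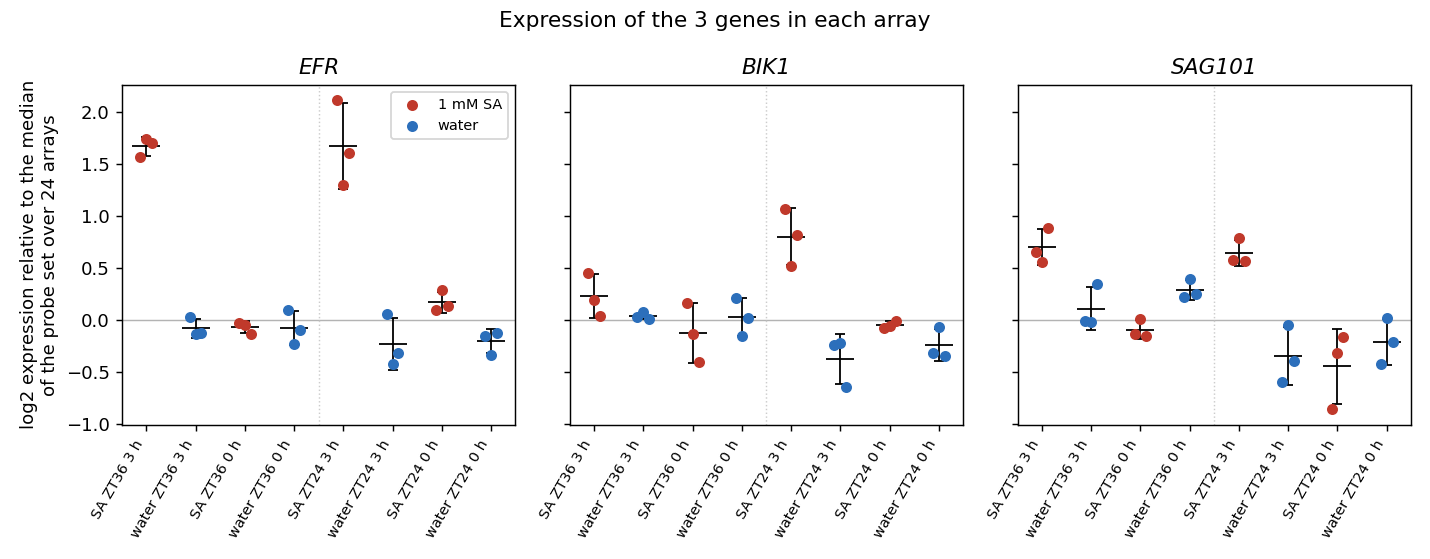
Centred log2 expression of EFR, BIK1 and SAG101 (one panel each) in every array, by group, with the ZT36 groups left of the dotted line and the ZT24 groups right of it. Points are arrays, horizontal marks are means and bars are SD (n = 3). EFR is high only in the SA 3 h groups of the 8 shown, BIK1 is highest in SA 3 h at ZT24, and SAG101 is highest in both SA 3 h groups.

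The difference of the EFR response between the times, ZT36 minus ZT24, was -0.15 ± 0.21 against water 3 h, with a 95% interval of -0.60 to 0.29 (adjusted p = 0.701). With SA 0 h as control it was 0.24 ± 0.21, with an interval of -0.20 to 0.68 (adjusted p = 0.808). Neither value passed the test, and the intervals leave room for a difference in either direction.

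BIK1 rose after SA at ZT24, and its response at ZT36 did not pass the test. At ZT24 it stood 2.25-fold above water 3 h, and at ZT36 1.14-fold. The ZT24 SA 3 h arrays held BIK1 at 1.07, 0.51 and 0.81, against -0.24, -0.23 and -0.65 in water 3 h, -0.08, -0.06 and -0.01 in SA 0 h and -0.32, -0.07 and -0.35 in water 0 h. These 3 treated arrays were the highest of all 24 for this gene. At ZT24 the SA 3 h arrays lay wholly above water 3 h for 20.2% of all probe sets, above SA 0 h for 16.4% and above water 0 h for 21.2%. At ZT36 the SA 3 h arrays held it at 0.45, 0.19 and 0.04, against 0.03, 0.07 and 0.01 in water 3 h, 0.17, -0.13 and -0.41 in SA 0 h and 0.21, -0.16 and 0.02 in water 0 h. There the treated arrays overlapped every set of controls.

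At ZT24 the log2 difference of BIK1 was 1.17 ± 0.15 against water 3 h (limma, Benjamini-Hochberg adjusted p = 2.47e-06), 0.85 ± 0.15 against SA 0 h (adjusted p = 0.000154) and 1.04 ± 0.15 against water 0 h (adjusted p = 1.05e-05). At ZT36 it was 0.19 ± 0.15 against water 3 h, with a 95% interval of -0.13 to 0.51 (adjusted p = 0.373), and 0.20 ± 0.15 against water 0 h (adjusted p = 0.332). Against SA 0 h it was 0.35 ± 0.15, with an interval of 0.04 to 0.67 (adjusted p = 0.0927). This last comparison passed with array weights (0.41, adjusted p = 0.0246) and without SA ZT36 0 h replicate 1 (0.50, adjusted p = 0.0229).

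The smaller BIK1 response at ZT36 passed the test as a difference between the times against the water controls and not against SA 0 h. With water 3 h as control the response at ZT36 minus that at ZT24 was -0.98 ± 0.22 (limma, Benjamini-Hochberg adjusted p = 0.00257), where the difference of 10.4% of probe sets was called below 0 and that of 10.3% above 0. It lay between -1.12 and -0.84 as each of the 12 arrays was left out, with an adjusted p of at most 0.0098. With water 0 h as control, which also takes in the 3 h after treatment, it was -0.84 ± 0.22 (adjusted p = 0.00527, 14.1% called in that direction). With SA 0 h as control it was -0.49 ± 0.22, with a 95% interval of -0.94 to -0.04 (limma unadjusted p = 0.0336, adjusted p = 0.435). BIK1 ranked 807 from the bottom of 22746 probe sets by this difference with water 3 h, and 810 with SA 0 h. With SA 0 h as control 0.598% of all probe sets were called, 136 in number. The count was 80 without SA ZT24 0 h replicate 1, 55 without SA ZT36 0 h replicate 2, 52 without SA ZT36 3 h replicate 2 and 1017 after quantile normalization. After that normalization the BIK1 value with SA 0 h as control was -0.24 (adjusted p = 0.702). With the SA minus water difference at 0 h subtracted, the value for BIK1 was -0.63 (adjusted p = 0.508). Which of -0.98 and -0.49 is the difference against water 3 h depends on those labels.

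**Figure D2:**
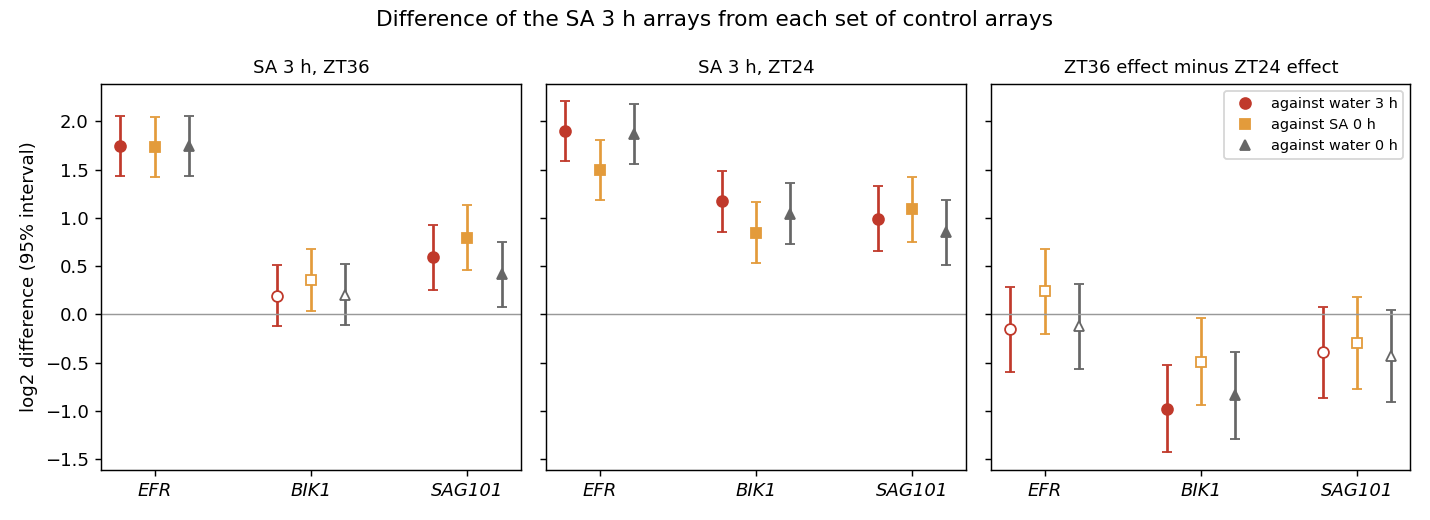
Log2 difference of the SA 3 h arrays from water 3 h (circles), SA 0 h (squares) and water 0 h (triangles) at ZT36, at ZT24, and the ZT36 difference minus the ZT24 difference, for each gene. Bars are 95% intervals from limma (n = 3 arrays a group), and filled symbols have an adjusted p under 0.05. All 3 values for EFR lie between 1.50 and 1.90 at either time, and the BIK1 values at ZT36 are open.

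Both sides of the water 3 h comparison contributed to the BIK1 difference. In the SA 3 h arrays BIK1 was lower at ZT36 than at ZT24 by -0.57 ± 0.15 (limma, Benjamini-Hochberg adjusted p = 0.00752), with no overlap between the groups, where 11.6% of probe sets were called lower at ZT36 and the groups of 17.7% did not overlap in that direction. In the water 3 h arrays it was higher at ZT36 by 0.41 ± 0.15 (adjusted p = 0.0403), again with no overlap, where 21.2% of probe sets were called higher and 26% had no overlap in that direction. The SA 3 h call was lost after quantile normalization (-0.39, adjusted p = 0.111) and without SA ZT24 3 h replicate 1 (-0.44, adjusted p = 0.0554). The water 3 h call did not survive the loss of ZT24 replicate 3 (0.27, adjusted p = 0.212) or of any 1 of the ZT36 arrays, replicates 1 (adjusted p = 0.0791), 2 (0.0937) and 3 (0.0747). In water 0 h the difference was 0.27 ± 0.15 (adjusted p = 0.175) and in SA 0 h -0.08 ± 0.15 (adjusted p = 0.759).

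SAG101 rose after SA at both times. It stood 1.51-fold above water 3 h at ZT36 and 1.98-fold above it at ZT24. At ZT36 the SA 3 h arrays held it at 0.65, 0.56 and 0.89, against -0.01, -0.02 and 0.34 in water 3 h, -0.14, 0.01 and -0.16 in SA 0 h and 0.21, 0.39 and 0.25 in water 0 h. Every treated array was above every control array, and the nearest controls were water 0 h replicate 2 and water 3 h replicate 3. The SA 3 h arrays lay wholly above water 3 h for 22.8% of all probe sets, above SA 0 h for 19.4% and above water 0 h for 21.9%. At ZT24 the SA 3 h arrays held it at 0.57, 0.79 and 0.57, against -0.60, -0.05 and -0.39 in water 3 h, -0.86, -0.32 and -0.17 in SA 0 h and -0.43, 0.01 and -0.21 in water 0 h. The treated arrays were well separated there, while the 3 control groups overlapped. The same shares of all probe sets at ZT24 were 20.2%, 16.4% and 21.2%.

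The log2 difference of SAG101 against water 3 h was 0.59 ± 0.16 at ZT36 (limma, Benjamini-Hochberg adjusted p = 0.00511) and 0.99 ± 0.16 at ZT24 (adjusted p = 3.89e-05). Against SA 0 h it was 0.79 ± 0.16 at ZT36 (adjusted p = 0.000604) and 1.09 ± 0.16 at ZT24 (adjusted p = 1.64e-05), and against water 0 h 0.41 ± 0.16 (adjusted p = 0.0454) and 0.85 ± 0.16 (adjusted p = 0.000202). The ZT36 call against water 3 h was lost after quantile normalization (0.41, adjusted p = 0.0648), and with the 0 h difference subtracted the value was 0.97 (adjusted p = 0.00297). ZT36 minus ZT24, the response differed by -0.40 ± 0.23 with water 3 h as control (95% interval -0.87 to 0.08, adjusted p = 0.265) and by -0.30 ± 0.23 with SA 0 h (interval -0.77 to 0.18, adjusted p = 0.762), so a smaller response at ZT36 was not detectable with 3 arrays a group.

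Of the 3 genes, SAG101 had a time-of-day difference in both sets of water arrays. It was higher at ZT36 than at ZT24 by 0.49 ± 0.16 in water 0 h (limma, Benjamini-Hochberg adjusted p = 0.018) and by 0.45 ± 0.16 in water 3 h (adjusted p = 0.0316), where 22.2% and 21.2% of probe sets were called higher at ZT36. In both arms the groups did not overlap, as for 25.4% and 26% of probe sets in that direction. Neither call held with every array left out in turn. In water 0 h it failed once ZT24 replicate 1 (adjusted p = 0.0995) or ZT36 replicate 2 (0.0676) was removed. In water 3 h it failed once ZT24 replicate 1 (0.165) or 3 (0.0804) or ZT36 replicate 3 (0.165) was removed, in a fit limited to those 6 arrays (0.0564) and with array weights (0.0635). In SA 3 h the difference was 0.06 ± 0.16 (adjusted p = 0.841), and in SA 0 h 0.35 ± 0.16 (adjusted p = 0.122), where the groups did not overlap, as for 20.8% of probe sets in that direction. EFR did not differ between the times beyond the test in any of the 4 arms, with values of -0.00 in SA 3 h, -0.24 in SA 0 h, 0.15 in water 3 h and 0.12 in water 0 h (adjusted p between 0.266 and 0.992). Its SA 0 h groups did not overlap, with ZT36 the lower, as for 18.4% of probe sets.

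**Figure D3:**
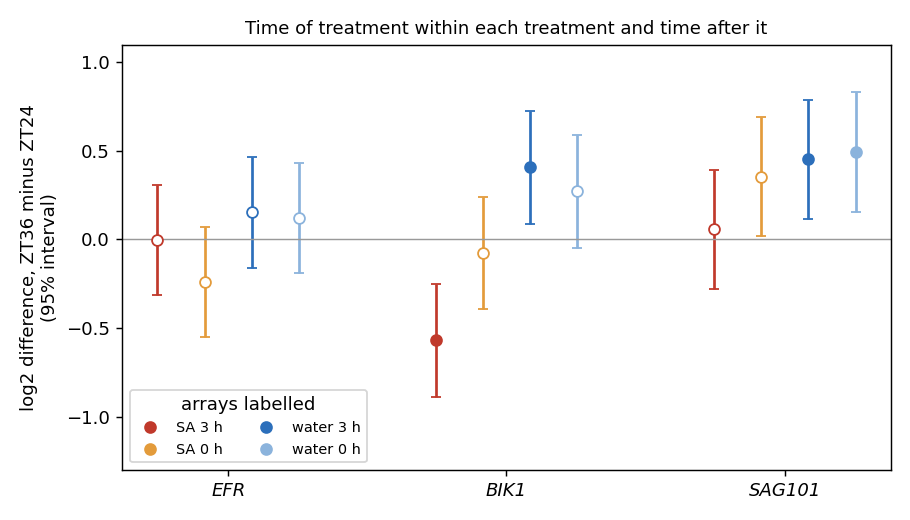
Log2 difference between treatment at ZT36 and at ZT24 for each gene, within the arrays labelled SA 3 h, SA 0 h, water 3 h and water 0 h. Bars are 95% intervals (n = 3 arrays a group), and filled symbols have an adjusted p under 0.05. BIK1 is below 0 in SA 3 h and above 0 in water 3 h, SAG101 is above 0 in both water arms, and all EFR symbols are open.

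Without SA at 3 h, none of the 3 genes passed the test in the remaining comparisons. Of all probe sets, 0.00879% were called between water 3 h and water 0 h at ZT36 and 0% at ZT24. Not passing there says nothing particular to these genes. Between SA 0 h and water 0 h the shares called were 29% at ZT36 and 16.2% at ZT24. Between water 3 h and water 0 h the log2 differences at ZT36 were 0.00 for EFR, 0.01 for BIK1 and -0.18 for SAG101, and at ZT24 -0.03, -0.13 and -0.14, with SE of 0.15, 0.15 and 0.16. Between SA 0 h and water 0 h, EFR stood at 0.01 ± 0.15 at ZT36 and 0.37 ± 0.15 at ZT24 (limma, Benjamini-Hochberg adjusted p = 0.973 and 0.0989). The EFR groups at ZT24 did not overlap, as was so in that direction for 15.1% of probe sets, and the comparison passed with quantile normalization (0.42, adjusted p = 0.0174), in a fit limited to those 6 arrays (0.0359) and with array weights (0.0264). SAG101 stood at -0.38 ± 0.16 at ZT36 (adjusted p = 0.0882), again without overlap (21.6% of probe sets in that direction), and passed in a fit limited to those arrays (0.0171), with array weights (0.0262) and with a block on runs of title numbers (0.0413). BIK1 stood at -0.15 ± 0.15 and 0.20 ± 0.15.

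Ordered by group mean, EFR stood at a high and a low level. Its means in SA 3 h were 1.67 ± 0.41 at ZT24 and 1.66 ± 0.09 at ZT36 (SD, n = 3 each) and overlapped, and a gap of 1.50 separated them from the next group, SA 0 h at ZT24 (0.17 ± 0.10), which in turn did not overlap SA 0 h at ZT36 (-0.07 ± 0.06). From there down to water 3 h at ZT24 (-0.23 ± 0.25) every neighbour in the order overlapped. For BIK1, SA 3 h at ZT24 (0.80 ± 0.28) stood alone at the top, 0.57 above SA 3 h at ZT36 (0.23 ± 0.21), and the 7 lower groups formed an unbroken run of overlapping neighbours that ended with water 3 h at ZT24 (-0.37 ± 0.24). For SAG101 the SA 3 h groups at ZT36 (0.70 ± 0.17) and ZT24 (0.64 ± 0.13) overlapped and stood 0.36 above water 0 h at ZT36 (0.28 ± 0.09). The other groups descended through overlapping neighbours to SA 0 h at ZT24 (-0.45 ± 0.36).

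Among all probe sets, the span of values over the 24 arrays was 2.53 for EFR, larger than that of 92.4% of probe sets, 1.72 for BIK1 (81.9%) and 1.74 for SAG101 (82.4%), on the log2 scale. The SD within groups, pooled over groups, was close for the 3 genes, at 0.19, 0.20 and 0.21, so the larger span of EFR lay between groups. Pearson's r over the 24 arrays, which share the treatment groups, was 0.79 between EFR and BIK1, 0.71 between EFR and SAG101 and 0.66 between BIK1 and SAG101. After group means were removed, r was 0.45, -0.38 and -0.06 in the same order. Many other genes were as close. Ranked by r among 13349 named genes, BIK1 was 748 and SAG101 was 1037 in likeness to EFR. EFR was 142 and SAG101 was 687 in likeness to BIK1, and EFR was 633 and BIK1 was 872 in likeness to SAG101.

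**Figure D4:**
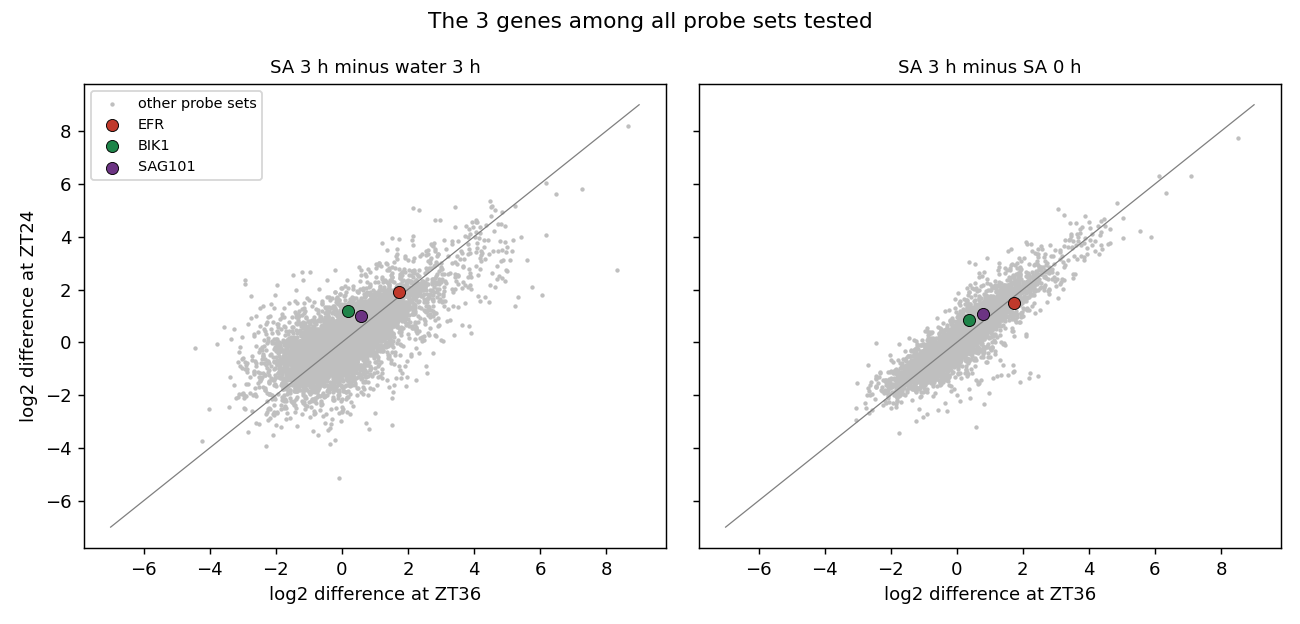
Log2 difference of every probe set tested at ZT36 (horizontal) and ZT24 (vertical), for SA 3 h minus water 3 h (left) and SA 3 h minus SA 0 h (right), with the 3 genes marked and a line of equal values. EFR lies near the line in both panels, and BIK1 lies above it, farther in the left panel.

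The genes whose values followed each member most closely over the 24 arrays were found by Pearson's r among 13349 other genes. They were picked on the same arrays that give the differences below. A direction shared with the member therefore follows from the choice and is not separate support. For EFR they were AT5G51830 (r = 0.98), AT4G22530, AT1G17330, AT4G18250 and UGT76B1 (each 0.97). Their log2 differences between SA 3 h and water 3 h ran from 0.86 for AT1G17330 to 8.66 for UGT76B1 at ZT36 and from 0.98 to 8.18 at ZT24, so genes with the shape of EFR differed widely in the size of the response. The most opposed were AT3G19000, AT2G45340 and AT1G73170 (each r = -0.96). For BIK1 they were AT5G66070, AT5G03020, VPS60.1 and AT3G59080 (each r = 0.89) and AT1G63720 (0.88). AT5G66070 had a log2 difference of 0.26 at ZT36 and 1.59 at ZT24, and AT1G63720 of 0.84 and 2.20. VPS60.1, a gene of membrane trafficking, had values of 0.85 and 1.81. Each value was smaller at ZT36, as for BIK1, which the choice by likeness favours. AT5G06060, AT3G56010 and AT5G61830 were the most opposed (each r = -0.86). For SAG101 they were AT4G17270 (r = 0.95) and AT1G54320, AT3G09735, AT3G28950 and AT1G07650 (each 0.93). In water 0 h these 5 were higher at ZT36 than at ZT24 by 0.34 to 0.92 on the log2 scale. AT3G13120 (r = -0.91), AT3G17350 and AT3G16350 (each -0.90) were the most opposed.

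Further genes of the same pathways were taken from 6 lists of 76 entries, of which 12, the 3 members included, had a named probe set. Of the 9 that are not members, 7 were higher, 1 lower and 1 not called in SA 3 h against water 3 h at ZT36, and 8 were higher and 1 lower at ZT24 (limma, with Benjamini-Hochberg adjusted p-values). Of all probe sets, 18.5% were higher and 21.6% lower at ZT36, and 17.7% higher and 20.5% lower at ZT24. Their median log2 difference was 1.48 at ZT36 and 1.21 at ZT24, beside -0.02 and -0.03 over all probe sets. With SA 0 h as control, 7 were higher, 1 lower and 1 not called at either time, with medians of 1.07 and 1.21, where 13.3% of all probe sets were higher and 16.4% lower at ZT36, and 14.3% higher and 17.4% lower at ZT24. With 9 genes measured out of 73, the counts describe those genes and not the lists. The lists, too, were chosen with earlier results of these data known. FLS2, BAK1, RBOHD, EDS1 and PAD4 were in the lists and, lacking a probe set with their name alone, were not analysed here.

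Among surface receptors, SD1-29, an S-domain receptor kinase gene whose product senses bacterial hydroxylated fatty acids, rose by 2.75 ± 0.14 at ZT36 and 1.19 ± 0.14 at ZT24 against water 3 h, and by 1.57 and 1.25 against SA 0 h. FER, the receptor kinase gene FERONIA, rose by 0.67 ± 0.08 at ZT24 and stood at -0.00 ± 0.08 at ZT36 against water 3 h (limma, Benjamini-Hochberg adjusted p = 0.998), and rose by 0.37 at ZT36 and 0.39 at ZT24 against SA 0 h. AT1G27190, listed with co-receptors and receptor regulators, was lower in SA 3 h, at -1.06 ± 0.16 and -0.78 ± 0.16 against water 3 h. Against SA 0 h it stood at -0.74 at ZT36 and -0.47 at ZT24, and the ZT24 value was not called with quantile normalization (-0.23), in a fit limited to those arrays (adjusted p = 0.0708), or once SA 3 h replicate 1 (-0.33) or SA 0 h replicate 2 (-0.36) or 3 (adjusted p = 0.0734) was left out. Of the genes for folding in the endoplasmic reticulum, ATERDJ3B, a chaperone needed for EFR to accumulate, rose by 3.50 ± 0.21 at ZT36 and 2.56 ± 0.21 at ZT24. BZIP60, a transcription factor gene of the unfolded protein response, rose by 0.69 ± 0.11 and 0.91 ± 0.11. Against SA 0 h they rose by 2.65 and 2.08, and by 0.78 and 1.21. The ATERDJ3B value at ZT24 was 1.07 after quantile normalization (adjusted p = 0.00147).

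The ubiquitin ligase genes PUB22, PUB23 and PUB24, whose products dampen pattern-triggered signalling, rose with SA against water 3 h. At ZT36 they rose by 1.48 ± 0.21, 1.11 ± 0.25 and 2.93 ± 0.25, and at ZT24 by 1.38 ± 0.21, 1.21 ± 0.25 and 2.38 ± 0.25. With the SA minus water difference at 0 h subtracted, PUB22 at ZT24 (0.52, adjusted p = 0.257) and PUB23 at ZT36 (0.71, adjusted p = 0.158) and ZT24 (0.55, adjusted p = 0.319) did not pass. PUB24 also rose against SA 0 h, by 2.38 at ZT36 and 2.70 at ZT24. In that comparison PUB22 rose by 1.07 at ZT36 and stood at 0.55 at ZT24 (limma, Benjamini-Hochberg adjusted p = 0.0529), a value that ran from 0.36 to 0.75 as single arrays were left out and passed without SA 3 h replicate 2 (adjusted p = 0.011). After quantile normalization it was -0.091 (adjusted p = 0.824). PUB23 stood at 0.61 at ZT36 (adjusted p = 0.0719) and ran from 0.38 to 0.76 as single arrays were left out, passing without SA 0 h replicate 1 (adjusted p = 0.0414) and with array weights (0.56, adjusted p = 0.037). At ZT24 it rose by 0.75 (adjusted p = 0.0236). That call did not hold once SA 0 h replicate 1 (0.57, adjusted p = 0.128) or SA 3 h replicate 1 (0.51, adjusted p = 0.166) was left out, or with quantile normalization (0.26, adjusted p = 0.539). AT5G52810 rose by 4.97 ± 0.23 at ZT36 and 2.75 ± 0.23 at ZT24 against water 3 h, and by 3.86 and 3.11 against SA 0 h. Its ZT24 value against water 3 h was 1.70 after quantile normalization (adjusted p = 3.25e-05). With the 0 h difference subtracted, values against water 3 h moved to 1.75 for SD1-29 at ZT36, 1.07 for BZIP60 at ZT36 and 0.34 for FER at ZT24, all still called, and to -0.51 for AT1G27190 at ZT24 (adjusted p = 0.117).

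**Figure D5:**
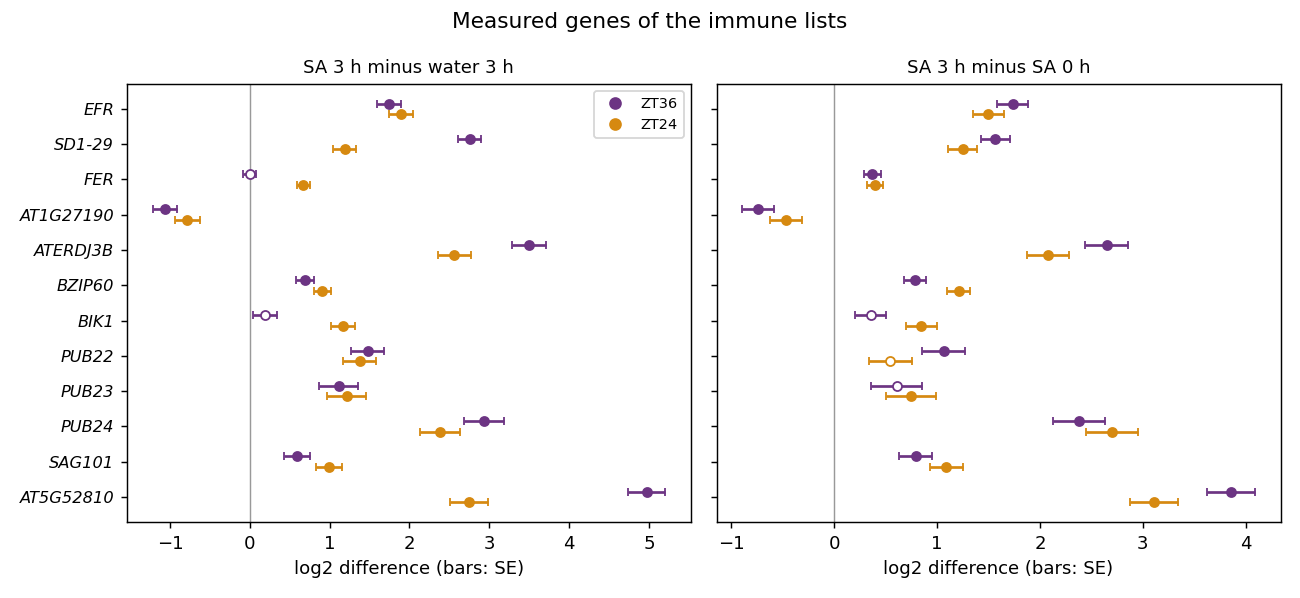
Log2 difference of SA 3 h from water 3 h (left) and from SA 0 h (right) for the 12 measured genes of the immune lists, at ZT36 (purple, upper symbol) and ZT24 (orange, lower symbol). Bars are SE (n = 3 arrays a group), and filled symbols have an adjusted p under 0.05. AT1G27190 is the gene below 0, and the ZT36 and ZT24 symbols lie farther apart for SD1-29 and AT5G52810 in the left panel than in the right.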

How the data were processed

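RNA of true leaves was hybridised to 24 arrays, in 8 labelled groups of 3. The authors deposited log2 expression values of 22810 probe sets, made with RMA per the submitters' processing notes, which state no version. The log base is taken from RMA. Every probe set is centred on its median over the arrays (largest absolute median 5e-07), which leaves differences between groups as they were and hides signal over background. The 64 control probe sets were left out. limma 3.58.1 in R 4.3.3 estimated a mean for each group from all arrays (16 residual and 4.03 prior degrees of freedom). Tests were 2-sided, and p-values were adjusted by Benjamini-Hochberg across 22746 probe sets and called at 0.05. Probe sets were named from the platform table (13513 with 1 symbol, 503 with several, 8730 unnamed) and a RefSeq table of TAIR10.1, which matched all 3 members. Close relatives may share signal. The likeness search used 1 probe set per gene, chosen by its identifier.

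On simulated data with 200 of 22746 probe sets changed, 56% of changes of 0.5 and 94.5% of changes of 1 were recovered for SA against water 3 h at ZT36. For the difference between the times the shares were 21% and 81.5%. In the data far more probe sets were called, 9133 and 4704 in these 2 comparisons. The adjusted threshold depends on that number, so the simulated shares do not describe recovery in the tests above. Named genes are the 3 members, up to 4 called members of each list, and the 5 most alike and 3 most opposed genes, with members not called given as values. The members and lists were chosen with earlier results of these data known. Alternatives were a second normalization, median centring, only the arrays compared, another prior, array weights, 1 probe set per gene, probe sets of higher SD, a title-run block, subtraction of the 0 h difference, an added fold limit, and each array left out. The labels give no replicate numbers. Replicates are numbered in accession order, which is also title order, so replicate 1 of every group is in the first run of titles, and the block uses the same runs. Plotting used Python 3.11.15 and matplotlib 3.10.9.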

Additional observations from a re-analysis of the deposited data

Results flagged for a closer look

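The response of BIK1 to SA differed between the times of treatment, at -0.98 for ZT36 minus ZT24 when set against water 3 h (limma, Benjamini-Hochberg adjusted p = 0.00257) and at -0.49 with SA 0 h as control, where it did not pass (adjusted p = 0.435). In SA 3 h all 3 ZT36 arrays lay below all 3 ZT24 arrays, as for 17.7% of all probe sets. In water 3 h all 3 ZT36 arrays lay above all 3 ZT24 arrays, as for 26%. With single arrays left out, the ZT36 minus ZT24 call was lost in 1 of 6 fits for SA 3 h and in 4 of 6 for water 3 h.

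Of the 9 other immune genes, 4 also had a response that differed between the times with water 3 h as control, where 10.3% of all probe sets were called above 0 and 10.4% below it. SD1-29 differed by 1.57 (limma, Benjamini-Hochberg adjusted p = 1.18e-05) and AT5G52810 by 2.22 (adjusted p = 6.42e-05), with the larger response at ZT36. For ZT36 minus ZT24, AT5G52810 stood at -2.35 in water 3 h and at -0.12, not called, in SA 3 h. In water 3 h SD1-29 stood at -1.13, -1.23 and -0.95 at ZT36, against -0.17, 0.05 and -0.07 at ZT24. In SA 3 h it stood at 1.51, 1.80 and 1.63 at ZT36, against 1.22, 1.05 and 1.11 at ZT24. ATERDJ3B differed by 0.94 (adjusted p = 0.0279), and this call failed once any of 7 single arrays was removed: at ZT36 replicate 2 (0.0619) or 3 (0.0506) of SA 3 h and 2 (0.0554) or 3 (0.0582) of water 3 h, and at ZT24 replicate 1 (0.0572) or 3 (0.0646) of SA 3 h and 2 of water 3 h (adjusted p = 0.0909). FER differed by -0.67 (adjusted p = 0.000233), with the larger response at ZT24. Its level was higher at ZT36 in both arms. In water 3 h FER stood at 0.32, 0.25 and 0.35 at ZT36, against -0.68, -0.53 and -0.76 at ZT24. In SA 3 h it stood at 0.32, 0.33 and 0.26 at ZT36, against 0.00, 0.05 and -0.00 at ZT24. With SA 0 h as control none of the 12 immune genes passed the limma test of a difference between the times. Of these 12, 3 had an unadjusted p under 0.05, beside 2253 of all 22746 probe sets. Only 0.598% of all probe sets were called there, so the lack of calls says nothing particular to these genes. In that comparison SD1-29 stood at 0.32, AT5G52810 at 0.75, ATERDJ3B at 0.57 and FER at -0.02, and AT5G52810 passed after quantile normalization (1.42, adjusted p = 0.0337). With the SA minus water difference at 0 h subtracted, the values were 0.39 for SD1-29, 0.61 for AT5G52810, 0.61 for ATERDJ3B and -0.04 for FER, and none passed (adjusted p between 0.693 and 0.966).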

How the results depend on the processing

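Over 42 values of EFR, BIK1 and SAG101, 596 of 642 recomputed values kept their direction and side of the threshold, and 21 changed sign, none of them called in either setting. Among the SA responses at 3 h, quantile normalization took SAG101 at ZT36 against water 3 h to 0.41 (adjusted p = 0.0648), array weights took BIK1 at ZT36 against SA 0 h to 0.41 (adjusted p = 0.0246), and subtraction of the 0 h difference took the BIK1 difference between times to -0.63 (adjusted p = 0.508). The cause was not tested. Leaving out 1 array at a time gave BIK1 values of 0.21 to 0.50 at ZT36 against SA 0 h. The other changes among time-of-day and 0 h values stand beside those results, except that SAG101 in SA 0 h, ZT36 minus ZT24, passed after quantile normalization (0.44, adjusted p = 0.0434) and without SA ZT24 0 h replicate 3 (0.49, adjusted p = 0.0446). For the 9 other immune genes, 836 of 891 values kept their direction and call, and 22 changed sign, again none called in either setting. EFR in SA 3 h, ZT36 minus ZT24, was 0.080 after quantile normalization, 0.0055 after median centring and 0.096 with array weights, and the EFR difference between times against water 3 h was 0.21 with the 0 h difference subtracted. PUB22 at ZT24 against SA 0 h was -0.091 after quantile normalization. The PUB23 difference between times was 0.095 (quantile normalization), 0.0066 (array weights) and 0.16 (0 h difference subtracted) against water 3 h, and 0.26 and 0.073 under the first 2 of these against SA 0 h. FER at ZT36 against water 3 h was 0.011 (median centring), 0.00037 (array weights) and 0.30 (0 h difference subtracted), and the PUB24 difference between times was -0.44 with the 0 h difference subtracted. With 1 array left out, sign changes gave these ranges. For EFR they were -0.34 to 0.065 (difference between times, water 3 h), -0.19 to 0.22 (ZT36 minus ZT24, SA 3 h), -0.066 to 0.098 (SA minus water, 0 h, ZT36), and -0.074 to 0.089 at ZT36 and -0.17 to 0.069 at ZT24 (water 3 h minus 0 h). For BIK1 they were -0.081 to 0.10 and -0.20 to 0.011 (water 3 h minus 0 h at ZT36 and ZT24) and -0.22 to 0.065 (ZT36 minus ZT24, SA 0 h), and for SAG101 -0.037 to 0.13 (ZT36 minus ZT24, SA 3 h). For the difference between times they were -0.10 to 0.28 for PUB22 and -0.33 to 0.14 for PUB23 against water 3 h, and -0.37 to 0.099 for PUB23 and -0.091 to 0.027 for FER against SA 0 h. FER at ZT36 against water 3 h ranged from -0.028 to 0.023. The labels state no pairing of arrays. A replicate block on runs of title numbers changed 1 call of the 3 members, SAG101 in SA against water at 0 h and ZT36 (-0.38, adjusted p = 0.0413). Counts of called probe sets moved by over 1.5 times with 1 probe set per gene, which tests 13350 in place of 22746 (4914 in place of 9133 for SA against water 3 h at ZT36, 4641 in place of 8677 at ZT24 and 2470 in place of 4704 for their difference). They were, against SA 0 h, 3582 in place of 6762, 3857 in place of 7211 and 72 in place of 136. With a log2 difference of at least 1 required, these 6 counts were 2520, 2314, 1394, 1545, 1746 and 82. With the 0 h difference subtracted, the counts against water 3 h were 5653 and 5060, and 29 for the difference between the times. Quantile normalization gave 3443 in place of 6358 for ZT36 against ZT24 in SA 3 h. A filter on dim probe sets could not be made on centred values, and the precision is limited by 3 arrays a group.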
